A study of Mus musculus with 22 samples.

Results

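Ion channels and neurotransmitter receptors were described in cultured mouse cortical neural stem cells (NSCs). The members were all genes of the footprint tables whose symbol begins with Gria, Grin, Grik, Grm or Gabr followed by a subunit number, or with Scn, Kcn or Cacn. Scn7a and Cacng6 were left out. The rule gave 179 Ensembl genes with 176 symbols, out of 23081 genes in the tables. Kcnb2, Kcnh8 and Scn8a have a pair of Ensembl genes each. The RNA-Seq files hold 162 of the 179 members, joined by Ensembl gene, and 17 members were measured only by ribosome footprints. The symbols Grinl1a and Scnm1 match the rule but do not name channel or receptor subunits.

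Polyadenylated RNA was sequenced in 14 libraries of 13 conditions, and monosome footprints (Ribo-Seq) in 8 libraries, all of NSCs from 129SvJae mice grown with EGF and bFGF. KH2 cells carry the doxycycline (Dox) transactivator R26-m2rTTA without a Musashi transgene. The tetO-Msi1 and tetO-Msi2 cells carry it too, with a Dox-inducible Msi1 or Msi2 cDNA at the Col1A1 locus. These 3 are called the tet lines, and Dox was given at 1 µg/ml for 72 hours. C1 cells have floxed Msi1 and Msi2 and no Cre, and C4 cells have the same floxed genes with a tamoxifen-activated Cre (CreER). These 2 are called the floxed lines, and 4-hydroxytamoxifen (4-OHT) was given for 48 hours. The E12.5 RNA libraries are those of the 3 tet lines, each without and with Dox, and of both floxed lines, each without and with 4-OHT. The E13.5 RNA libraries are untreated KH2 and tetO-Msi1 without and with Dox. Footprints were made at E12.5 from all lines but tetO-Msi2, each untreated and treated. Each condition was 1 library, except the untreated E13.5 tetO-Msi1 condition, where 2 technical libraries were summed. No other condition had a replicate, so every test below takes its spread from differences between lines, stages or treatments.

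Glutamate opens AMPA, kainate and NMDA receptor channels and activates the metabotropic receptors, which act through G proteins. GABA opens GABA-A receptor channels, pentamers of subunits encoded in part by clusters of neighbouring genes. Voltage-gated sodium and calcium channels carry inward current in excitable cells, while potassium channels set the resting potential and end the action potential. Neural progenitors and glia are known to express a subset of these genes, among them inward rectifier potassium channels and calcium-permeable glutamate receptors.

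RNA-Seq libraries held 7889966 to 58435172 counts and footprint libraries 657288 to 6381242. The share of the reads behind the deposited RPKM that was counted in genes was 14.9% to 15.8% in the E12.5 tet libraries and 28.2% to 34.1% in the floxed and E13.5 libraries. The median gene was therefore 1.00 to 1.09 log2 units higher in deposited RPKM in the floxed libraries than in untreated E12.5 KH2 cells, and 0.87 to 1.05 higher in the E13.5 libraries. Levels below are scaled RPKM, the counts per kilobase divided by the TMM effective library size and set on the RPKM scale, which leaves no more than 0.045 log2 units of this shift. Msi1 was 29.1 without and 158 with Dox in tetO-Msi1 cells at E12.5, and Msi2 was 34.6 without and 188 with Dox in tetO-Msi2 cells. In C4 cells Msi2 was 27.9 before and 3.07 after 4-OHT. Msi1 was 6.67 and 6.38 in the same libraries, so reads over the whole Msi1 gene did not show its loss there. In untreated C1 cells Msi1 was 18.5. Scaled footprint levels in C4 cells went from 3.34 to 1.45 for Msi1 and from 19.5 to 1.01 for Msi2 with 4-OHT. The stem cell markers Sox2 (120 to 322) and Nes (28.7 to 110) were read in every library. Of the neuronal markers, Stmn2 was at 0 to 1.146, Gap43 at 11 to 61.5, Nefl at 0.214 to 41.7 and Nefm at 0.589 to 28.7, and the microglial marker Cx3cr1 was at 0 throughout.

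Of the 162 members in the RNA-Seq files, 53 (32.7%) had a mean deposited RPKM of at least 1 over the 5 untreated E12.5 libraries. The same threshold was met by 47.9% of all 22623 genes. The median member had a mean RPKM of 0.330 and the median gene 0.623. At a threshold of 0.5 the count of members was 73, and at 2 it was 42. The mean covers both line families, and deposited RPKM runs higher in the floxed libraries. Members low in the tet lines could therefore pass through the floxed lines. Kcnk3, Kcnk1, Gabra5 and Cacna1a were under 1 scaled RPKM in each untreated E12.5 tet library. Kcnab3 (1.07) lay just inside the threshold of 1, and Gabra4 (0.990), Kcnip1 (0.893) and Kcnc4 (0.871) lay just outside. Of the 162 members 95 had a read in every RNA library, and 9 had none in any: the GABA-A subunits Gabra6 and Gabrr3, the sodium channel genes Scn10a and Scnn1g, and 5 potassium channel genes. These 9 had at most 3 footprints each. Of the 53 members, 51 had at least 10 footprints over the untreated Ribo-Seq libraries and 22 had at least 10 in each of them. Of all 179 members, 41 had no footprint in any library.

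The AMPA receptors were represented by 3 of their 4 genes. Gria2, the subunit that limits calcium entry, averaged 26.9 scaled RPKM over the untreated E12.5 libraries, with values of 22.3 in KH2, 25 in tetO-Msi1, 23.8 in tetO-Msi2, 25.3 in C1 and 38.2 in C4 cells. Gria4 ranged from 5.33 to 16.2 and Gria3 from 2.43 to 6.06 in the same libraries, whereas Gria1 did not exceed 0.419. The auxiliary subunits that traffic AMPA receptors (TARPs) were among the highest members: Cacng7 averaged 47.2, Cacng4 21.4 and Cacng8 4.48. Cacng2, also called stargazin, averaged 0.0024.

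Kainate receptors were represented by 3 of 4 genes, led by the high-affinity subunit Grik5 with 13.3 to 34.7. Of the NMDA receptor genes 2 of 7 passed the threshold. The obligatory subunit Grin1 was at 0.748 to 4.07, and the glycine-binding subunit Grin3a was at 3.10 to 6.52. Grin2a to Grin2d, which bind glutamate, were all below the threshold. Of 8 metabotropic receptors, Grm5 (3.57 to 15.9) and Grm3 (2.36 to 4.57) passed it. Of 14 GABA-A subunit genes, 4 passed, among them Gabrg1, Gabra5 and Gabra2, which averaged 10.5, 2.31 and 1.26.

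Potassium channel genes are the largest group in the list of members. Their counts stand beside 32.7% of all members and 47.9% of all genes past the threshold. Of 37 voltage-gated pore genes 11 passed the threshold, and the leading ones were the A-type channel genes Kcnd3 (18.1 to 33.4) and Kcnd2 (8.71 to 21.5) and the delayed rectifier Kcna2 (7.59 to 11.4). Kcnip3, a cytoplasmic partner of the Kcnd channels, averaged 26.6. The BK channel subunit Kcnmb4 had the highest mean of the potassium channel genes over the 5 untreated E12.5 libraries, at 20.02 to 83.9, while Kcnd3 and Kcnip3 were above it in C1 and C4 cells. The BK pore gene, Kcnma1, was at 1.57 to 3.47. Of 13 inward rectifiers, the glial pair Kcnj10 (12.2 to 25.4) and Kcnj16 (10.2 to 18.2) passed. Of 14 tandem-pore (K2P) leak channels 4 passed: Kcnk3, Kcnk2, Kcnk1 and Kcnk10. Of the calcium- and sodium-activated channels 4 of 8 passed.

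Among sodium channels, 1 of 8 alpha subunit genes passed: Scn8a, at 1.92 to 8.35. Of the 4 beta subunit genes, 2 passed. None of the 3 epithelial sodium channel genes passed, and the highest of them, Scnn1a, averaged 0.137. Among calcium channels, 2 of 8 alpha1 pore genes passed, Cacna1a and Cacna1b, averaging 2.11 and 1.65. The Cacna1b value rests on few reads: 11, 11, 8, 34 and 30 in untreated KH2, tetO-Msi1, tetO-Msi2, C1 and C4 cells. Cacna1a had 160 to 6143 reads in the same libraries. The auxiliary subunits were higher: Cacnb3 averaged 11.6 and Cacna2d1, the gabapentin receptor, averaged 11.6. Grinl1a averaged 75.0 with an SD of 5.67 over the 5 libraries.

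**Figure D1:**
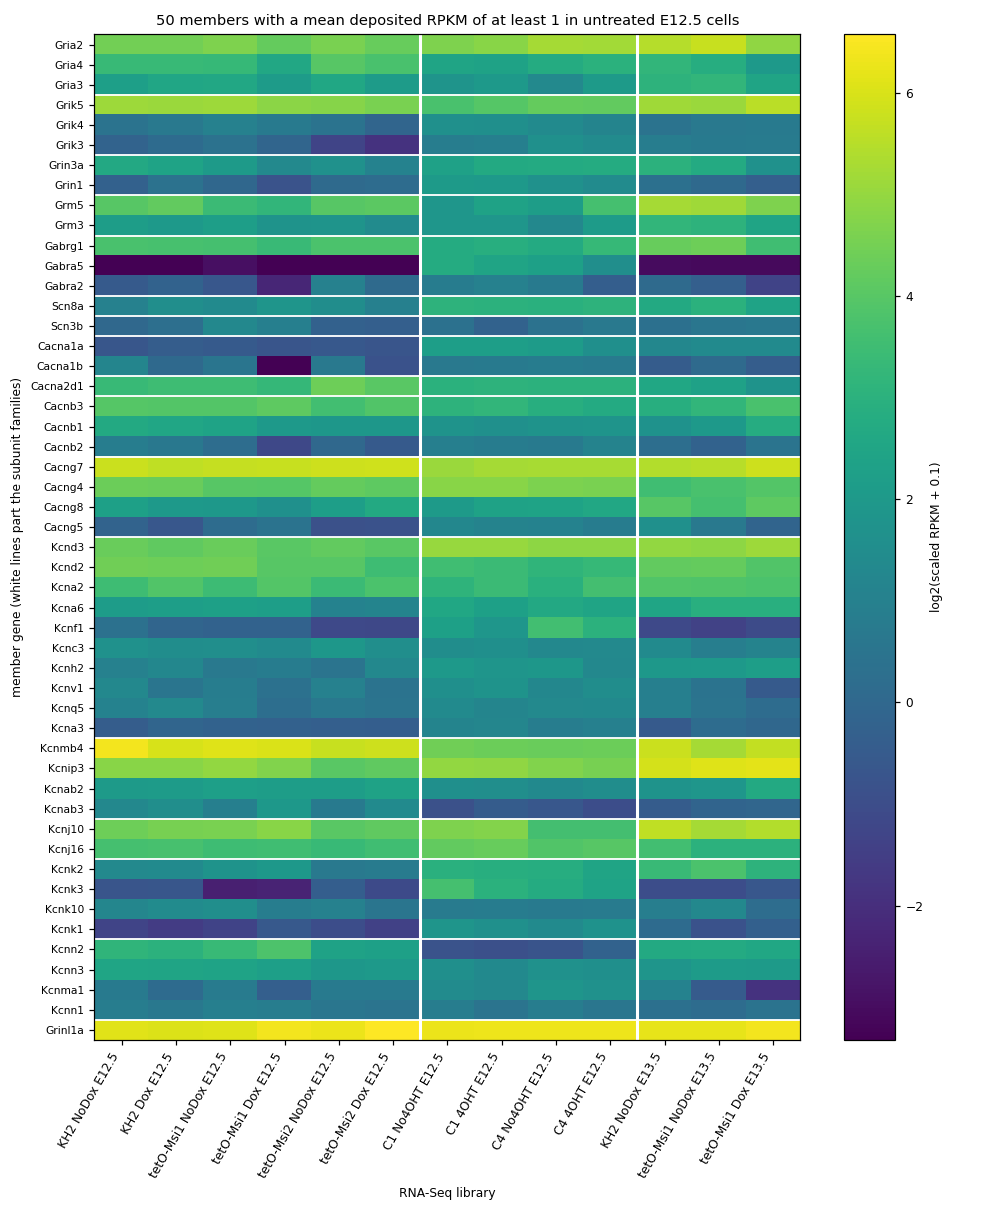
Heat map of log2(scaled RPKM + 0.1) for 50 of the 53 members with a mean deposited RPKM of at least 1, with genes in rows grouped by family and the 13 RNA-Seq conditions in columns. White vertical lines part the E12.5 tet, floxed and E13.5 libraries, and Kcnk3, Gabra5 and Kcnf1 are brighter in the 4 floxed columns while Kcnn2 is darker there.

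The untreated line families were compared first. C1 and C4 cells (2 libraries) were compared with KH2, tetO-Msi1 and tetO-Msi2 cells (3 libraries) by edgeR's quasi-likelihood test, fitted over 12211 genes with a CPM, the count per 1e6 counts of a library, of at least 1 in 2 libraries. Of 96 members tested, 37 were higher and 22 lower in the floxed lines at an adjusted p under 0.05. Of all genes tested, 33% were higher and 33.3% lower. The median log2 difference was 0.42 over the members and 0.0046 over all genes. Line family, the transgenes and alleles, and the counted share of reads all change together in this comparison and cannot be told apart.

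Of the GABA-A subunits, 4 of 6 tested genes were higher and 1 lower in the floxed lines. Gabra5, the alpha subunit of extrasynaptic hippocampal receptors, was at 6.68 in C1 and 4.84 in C4 cells, at 0 in KH2 and tetO-Msi2 cells and at 0.031 in tetO-Msi1 cells. The floxed libraries held 2757 Gabra5 counts and the tet libraries 3, a ratio of 424 per unit of library size with a 95% counting interval of 145 to 2059. The interval covers counting error only. Gabra4 was at 1.32 and 1.958 in floxed cells and at 0.050 to 0.167 in tet cells, a log2 difference of 3.78 ± 0.45 (SE, edgeR adjusted p = 0.00049). Gabrb1 was at 0.429 and 0.861 against 0.010 to 0.031, a log2 difference of 5.09 ± 0.59 (edgeR adjusted p = 0.00044). Gabra5, Gabra4 and Gabrb1 reached 1 CPM in the floxed libraries alone, so the filter itself favoured a higher call for them. Gabrg1 went the other way, with 6.74 and 6.5 in floxed cells and 12.6 to 13.4 in tet cells, a log2 difference of -0.98 ± 0.094 (edgeR adjusted p = 0.0002). Gabra2 overlapped between the families and was not called.

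These GABA-A genes lie in clusters of the mouse genome (build mm9, gene bounds of the annotation). On chromosome 7, Gabrg3 (63971835 to 64642558, minus strand) is followed after 20.5 kb by Gabra5 (64663060 to 64765379, minus strand). Gabrg3 was not in the RNA-Seq files. It had 24 footprints in untreated and 18 in treated C1 cells, 5 in untreated and 0 in treated C4 cells, and 0 in each of the 4 tet libraries. On chromosome 5, Gabrg1 (71142286 to 71233856, minus strand) was lower in the floxed lines, while Gabra4 (71960973 to 72049547, minus strand) and Gabrb1 (72091171 to 72529628, plus strand), 41.6 kb apart, were higher. Within 500000 bases of one another, 73 of the 179 members lay in 30 such clusters. These include the pairs of Ensembl genes that share the symbols Kcnb2, Scn8a and Kcnh8. The share over all genes was not computed. Other neighbours also differed in direction: on chromosome 3 Kcna3 was higher (1.44 ± 0.18 log2 units) and Kcna2 lower (-0.45 ± 0.10) in the floxed lines, with edgeR adjusted p of 0.00061 and 0.0081.

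The promoters of the GABA-A genes that differed are shown because neighbours in the chromosome 5 cluster differed in opposite directions. Each is 300 bases from RefSeq (build GRCm38.p6), 250 before and 50 after the start, written 5′ to 3′ on the gene's strand. RefSeq promoters were at hand for 125 of the 176 member symbols. Capitals mark 3 motifs on either strand. The TATA box, searched as TATAAA, occurs in 13.6% of 32851 promoters of this length. The CCAAT box occurs in 37.4% of them. The GC box, searched as GGGCGG, occurs in 35.7%, and no hit overlapped another. The Gabra4 start and the first Gabrb1 start are 387 bases apart on opposite strands. Gabrb1 has a second RefSeq start farther from Gabra4, and the mm9 gene bounds above leave 41.6 kb between the genes.
Gabra5, chr7:57510010-57510309, minus strand: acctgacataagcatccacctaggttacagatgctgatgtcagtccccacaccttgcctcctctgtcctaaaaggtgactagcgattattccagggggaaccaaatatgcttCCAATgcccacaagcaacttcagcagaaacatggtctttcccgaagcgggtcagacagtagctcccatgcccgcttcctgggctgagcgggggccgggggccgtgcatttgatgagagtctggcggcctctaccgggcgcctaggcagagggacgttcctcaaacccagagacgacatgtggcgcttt
Gabra4, chr5:71658259-71658558, minus strand: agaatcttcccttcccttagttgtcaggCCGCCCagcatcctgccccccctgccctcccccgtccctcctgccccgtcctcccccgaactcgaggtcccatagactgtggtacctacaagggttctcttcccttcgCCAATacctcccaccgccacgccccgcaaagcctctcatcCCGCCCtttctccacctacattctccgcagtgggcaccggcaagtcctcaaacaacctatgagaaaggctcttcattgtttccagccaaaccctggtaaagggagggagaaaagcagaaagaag
Gabrb1, chr5:71657671-71657970, plus strand: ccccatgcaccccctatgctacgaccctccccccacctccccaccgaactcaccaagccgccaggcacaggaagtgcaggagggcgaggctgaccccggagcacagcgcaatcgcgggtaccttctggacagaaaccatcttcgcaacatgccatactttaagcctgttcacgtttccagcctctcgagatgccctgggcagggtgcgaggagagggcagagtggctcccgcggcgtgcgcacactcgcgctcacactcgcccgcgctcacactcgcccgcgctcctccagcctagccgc
Gabrg1, chr5:70842568-70842867, minus strand: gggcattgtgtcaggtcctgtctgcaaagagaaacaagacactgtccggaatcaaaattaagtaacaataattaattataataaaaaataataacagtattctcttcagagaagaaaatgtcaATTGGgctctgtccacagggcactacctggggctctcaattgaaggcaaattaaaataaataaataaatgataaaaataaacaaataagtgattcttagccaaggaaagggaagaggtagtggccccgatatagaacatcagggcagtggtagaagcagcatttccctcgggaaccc
The first Gabrb1 promoter holds 25 CpG dinucleotides, Gabra5 13, Gabra4 12 and Gabrg1 3, against a median of 7 over all promoters. Gabra5 and Gabrg1 hold 1 CCAAT each, on opposite strands, Gabra4 holds 1 CCAAT and 2 GGGCGG, and the first Gabrb1 promoter holds none of the 3 motifs. The promoter of the second Gabrb1 start (chr5:71699682-71699981, plus strand) holds 9 CpG dinucleotides and none of the 3 motifs.

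The voltage-gated potassium channel pores were higher in the floxed lines for 14 of 25 tested genes and lower for 3. Kcnf1, a subunit that modifies Kv2 channels, was at 4.78 in C1 and 12 in C4 cells and at 1.19, 0.766 and 0.359 in the tet lines, a log2 difference of 3.44 ± 0.52 (edgeR adjusted p = 0.0013). The Kv1 gene Kcna1 was at 1.34 and 0.640 against 0 to 0.052, and the EAG-family gene Kcnh5 at 0.858 and 1.12 against 0.013 to 0.048. Kcns1 held 223 counts in the floxed and 2 in the tet libraries, a ratio of 51.5 with a counting interval of 14.1 to 428. Kcna1, Kcnh5 and Kcns1 reached 1 CPM in the floxed libraries alone, so the filter favoured a higher call. The 3 lower pores were Kcnq3, Kcnd2 and Kcna2. Kcnd2 was at 11.6 and 8.71 against 15.8 to 21.5, whereas the other A-type gene, Kcnd3, was at 33.4 and 29.7 against 18.1 to 19.8. Both differences passed the test, at -0.95 ± 0.19 and 0.71 ± 0.092 log2 units (edgeR adjusted p = 0.0044 and 0.00068).

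The K2P leak channels were higher for 3 of 6 tested genes and lower for 1. Kcnk3 (TASK-1, an acid-sensitive leak channel on chromosome 5, 30890543 to 30927643 in mm9) was at 12.54 in C1 and 6.66 in C4 cells, and at 0.516, 0.084 and 0.683 in the tet lines. The log2 difference was 4.59 ± 0.62 (edgeR adjusted p = 0.00081). Kcnk1 was at 3.49 and 2.58 against 0.301 to 0.412.

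Of 7 potassium channel accessory subunits tested, 5 were lower in the floxed lines (Kcnip4, Kcnrg, Kcnab3, Kcnmb4 and Kcnab2) and Kcnip1 was higher. Kcnmb4 was at 21.6 and 20.02 in floxed cells against 83.9, 67.9 and 53.1 in tet cells (-1.72 ± 0.20 log2 units, edgeR adjusted p = 0.00042). Kcnn2, an SK channel opened by intracellular calcium, had the largest difference among the lower members, with 0.478 and 0.492 in floxed and 8.89, 10.1 and 5.13 in tet cells (-4.06 ± 0.33, edgeR adjusted p = 0.00011). Kcnj11, the pore of the ATP-sensitive potassium channel, was at 0.084 and 0.083 against 1.00 to 1.25 (-3.79 ± 0.29, edgeR adjusted p = 8.1e-05). Kcnj11, Kcnip4 and Kcnrg reached 1 CPM in the tet libraries alone, and Kcnip1 in the floxed libraries alone. For these members the filter favoured the direction called. Of the 6 calcium- and sodium-activated channels tested, Kcnn2 and Kcnn3 were lower, Kcnma1 was higher and 3 were not called. The glial rectifier Kcnj10 overlapped between the families and was not called.

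Glutamate receptors were split. Grin1 was higher in floxed cells (2.04 ± 0.18 log2 units, edgeR adjusted p = 0.00014), Grin2a was higher and Grin2b and Grin2c were lower. Grik3 and Grik4 were higher while Grik5 and Grik1 were lower. Gria1 was higher, at 0.186 and 0.419 against 0.032 to 0.044, and Gria3 and Gria4 were lower. Gria1 reached 1 CPM in the floxed libraries alone, and Grin2b and Grik1 in the tet libraries alone, so the filter favoured these calls. Grm5 was at 3.57 and 4.49 in floxed cells against 15.9, 10.5 and 15.8 in tet cells (-1.81 ± 0.22, edgeR adjusted p = 0.00051). Of the calcium channel pores, 3 of 5 tested genes were higher and none was lower. Cacna1a, the P/Q-type pore, was at 4.63 and 4.21 against 0.534 to 0.594 (2.97 ± 0.11, edgeR adjusted p = 1.8e-05). Both sodium channel alpha genes tested were higher, with Scn8a at 8.35 and 7.71 against 1.92 to 2.76 (1.72 ± 0.22, edgeR adjusted p = 0.00071). Neither beta subunit gene tested was called.

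Of the 37 higher members, 10 (among them Gabra4, Gabra5, Gabrb1, Gria1, Kcna1, Kcnh5, Kcnip1 and Kcns1) reached 1 CPM in the floxed libraries alone, and 5 of the 22 lower members (Grik1, Grin2b, Kcnip4, Kcnj11 and Kcnrg) reached it in the tet libraries alone, so for these members the filter itself favoured the direction called. Without either floxed library the number of members called fell to 40 (without C1) and 39 (without C4), and the 10 members that passed through the floxed libraries alone could not be tested, having at most 1 library at that level. The cause of the other losses was not tested.

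**Figure D2:**
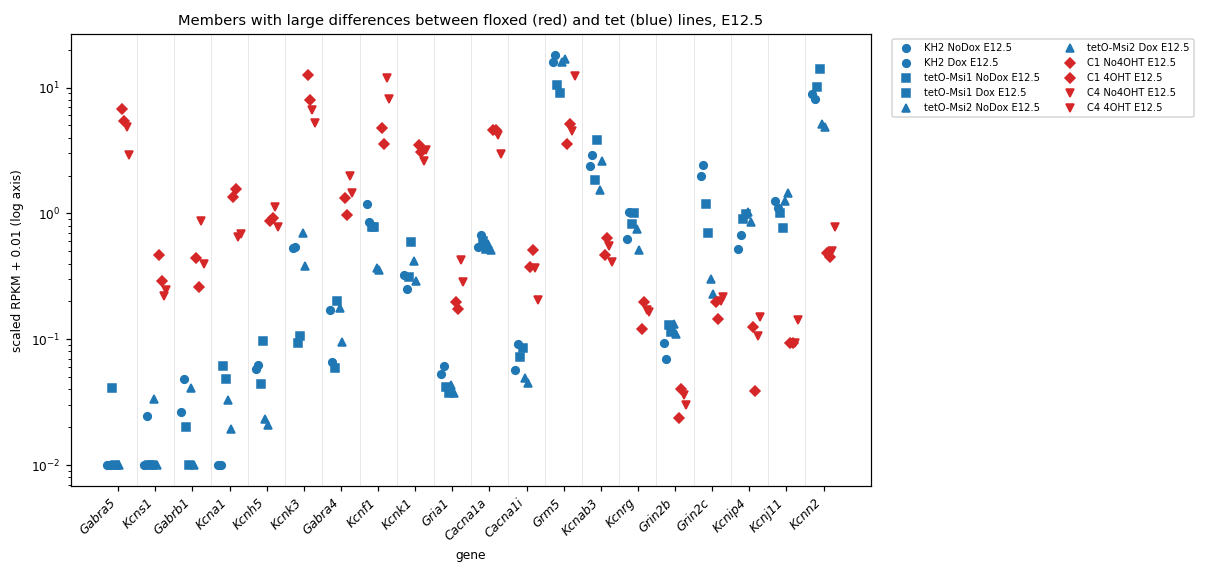
Scaled RPKM + 0.01 on a log axis for 12 members higher and 8 members lower in the floxed lines, with 1 point for each E12.5 library (tet lines blue, floxed lines red, shapes for lines). The 4 red points of Gabra5 lie between 2.88 and 6.68 and its 6 blue points at or below 0.031, and for Kcnn2 the red points lie at or below 0.776 and the blue points at or above 4.85.

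Markers of other cell types also differed between the families. Of 10 neuron markers 7 were higher and 1 lower in the floxed lines, and their summed scaled RPKM was 26.7 to 50.2 in the E12.5 tet libraries and 93.8 to 145 in the floxed libraries. Among them Gap43 was at 11 to 35 against 48.1 to 61.5, Nefl at 0.21 to 0.46 against 19.7 to 41.7 and Nefm at 0.59 to 1.5 against 10.9 to 28.7. Tubb3 went the other way in untreated cells, at 6.05 to 8.23 in the tet lines and 4.43 and 5.66 in C1 and C4 cells. The summed astrocyte list overlapped, at 308 to 511 and 409 to 541, while Gfap in it was at 0 to 1.42 and 39.1 to 107. The vascular, mesenchymal and microglial list summed to 2.01 to 9.26 and 30.7 to 87.4, nearly all of it Acta2, and Cx3cr1 was at 0 in all. The oligodendrocyte lineage list overlapped, at 369 to 491 and 420 to 598. The stem cell list overlapped, at 3151 to 3961 and 3627 to 3904, and Hes5 in it was at 119 to 187 and 4.92 to 7.37. The part of these markers in the members' differences was not tested. In such bulk samples, fewer cells of a type and less RNA per cell cannot be told apart. Of 26 other channel and receptor genes tested (chloride, HCN, cholinergic, GABA-B and related), 12 were higher and 8 lower, led by Gabbr2 (4.45 log2 units). Of 8 genes of transmitter synthesis and transport, 3 were higher and 1 lower.

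Ribosome footprints gave a separate readout of the same cells. They were compared over the 4 floxed and 4 tet libraries of E12.5, scaled as for RNA, for the 88 members with at least 20 footprints in all. In 10 members all 4 floxed libraries lay above all 4 tet libraries, and in 12 members all lay below. Of 12262 genes, 21.3% lay above and 18.9% below in the same way. Treated and untreated libraries of a line share their cells, so the 8 libraries are not independent. Of the 37 members with higher mRNA, 30 had enough footprints, 25 had a higher mean footprint level and 9 lay wholly above. Of the 22 with lower mRNA, 16 had enough, 3 had a higher mean and 6 lay wholly below. Over the 72 members with both readouts, the log2 differences had a Pearson correlation of 0.737 and a Spearman correlation of 0.762, a description across genes that share the same libraries.

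Kcnk3 had 148, 22, 45 and 33 footprints in the untreated and treated C1 and the untreated and treated C4 libraries, and 0, 0, 1 and 0 in KH2 and tetO-Msi1 libraries. Gabra5 had 55, 20, 7 and 0 against 0, 0, 1 and 0. Grik5 lay wholly below, at 0.332 to 0.949 scaled RPKM in floxed and 2.30 to 3.74 in tet libraries, as did Kcnd2 at 1.16 to 1.88 and 3.03 to 6.26. Gabrg1, lower in floxed mRNA, overlapped in footprints at 2.71 to 4.50 and 1.95 to 4.00.

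**Figure D3:**
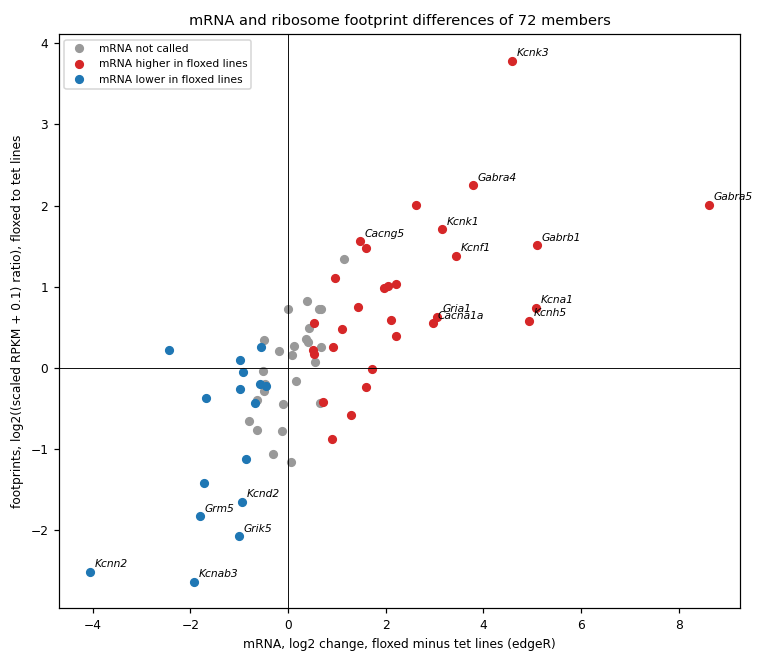
Each point is 1 of 72 members, with the edgeR log2 change of mRNA, floxed minus tet lines, on the x axis and the log2 ratio of footprint scaled RPKM + 0.1 on the y axis (red, mRNA higher; blue, mRNA lower; grey, not called). Kcnk3 lies far to the upper right and Kcnn2 to the lower left, with a Pearson correlation of 0.737.

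The stages were compared in untreated KH2 cells and in tetO-Msi1 cells without and with Dox, with each condition as a block. The tetO-Msi1 libraries of a stage share their line, so the blocks are not independent. The p-values take no account of this. Of 88 members tested, 27 were higher and 25 lower at E13.5 by edgeR (adjusted p under 0.05), against 27.2% and 27.6% of 12098 genes. The median log2 difference was -0.04 over the members and -0.0053 over all genes. The stages also differ in the counted share of reads and in the embryos of origin. Stage and these differences cannot be told apart.

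Of the AMPA receptor genes Gria1, Gria2 and Gria3 were higher at E13.5 and Gria4 lower, and of 4 metabotropic receptors tested Grm3, Grm4 and Grm5 were higher. Of 5 NMDA receptor genes tested Grin3a and Grin2b were higher, Grin2c and Grin2d lower and 1 was not called. Of 4 kainate receptor genes tested Grik3 was higher and 3 were not called. Grm5 was at 15.9, 10.5 and 9.0 at E12.5 in KH2 cells, tetO-Msi1 cells and tetO-Msi1 cells with Dox, and at 37.6, 35.3 and 25.2 at E13.5 (1.45 ± 0.12 log2 units, edgeR adjusted p = 2e-06). Gria2 went from 22.3, 25 and 18.8 to 44.1, 53.3 and 30.1 (0.88 ± 0.11, edgeR adjusted p = 5.8e-05). Gria1 was at 0.044, 0.032 and 0.027 and then at 0.436, 0.210 and 0.256 (3.0 ± 0.39, edgeR adjusted p = 7.2e-05). It reached 1 CPM at E13.5 alone, so the filter favoured a higher call. The TARP Cacng8 went from 4.79, 3.77 and 3.03 to 16.1, 12.6 and 17.1 (1.92 ± 0.17, edgeR adjusted p = 3.4e-06).

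Of the calcium channel pores, 3 of 5 were higher and 1 lower. Cacna1a was at 0.534, 0.594 and 0.510 at E12.5 and at 2.30, 2.59 and 2.58 at E13.5 (2.14 ± 0.12, edgeR adjusted p = 1.3e-07). Of 3 alpha2delta subunits tested, Cacna2d1 and Cacna2d3 were lower and Cacna2d2 was higher, and of 3 beta subunits Cacnb3 and Cacnb4 were lower and 1 was not called. Cacna2d1 was lower by 1.2 ± 0.14 and Cacnb3 by 0.77 ± 0.13 log2 units (edgeR adjusted p = 3.2e-05 and 0.00053). Of the potassium channels, 5 of 20 voltage-gated pores were higher and 4 lower, 2 of 8 calcium- and sodium-activated channels were higher and 3 lower, and 1 of 6 inward rectifiers was higher and 2 lower. In the K2P family 1 of 6 was higher and 2 lower, and of 6 accessory subunits 1 was higher and 4 lower. Kcnip3 (1.18 ± 0.12), Kcnk2 (1.73 ± 0.18) and Kcnj10 (0.78 ± 0.13) were higher at E13.5, with edgeR adjusted p of 1.1e-05, 1.2e-05 and 0.00042. Among the lower ones were Kcnk13 (-2.26 ± 0.25), Kcnj11 (-1.91 ± 0.26), Kcnn2 (-0.83 ± 0.14) and Kcnmb4 (-0.65 ± 0.12). Kcnt2 held 185 counts at E13.5 and 3 at E12.5, a ratio of 18.9 with a counting interval of 6.36 to 92.4. Kcnip4 held 46 counts at E12.5 and 0 at E13.5, which is at least 50.1-fold lower if 3 counts are allowed over the E13.5 libraries.

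Of the members higher at E13.5, 4 (Gabrr2, Gria1, Kcnn4 and Kcnt2) reached 1 CPM at E13.5 alone, and of those lower, Cacna1i and Kcnip4 reached it at E12.5 alone. For these members the filter itself favoured the direction called. Without the untreated tetO-Msi1 pair 30 members were called instead of 52, and all 30 were among the 52. Of 9 neuron markers tested, Gap43 and Snap25 were higher and none lower, and the list summed to 42.6 to 63.5 at E13.5 against 26.7 to 50.2 in the E12.5 tet libraries. Gfap was at 9.68 to 21.1 against 0 to 1.42, while the summed astrocyte list overlapped at 476 to 586. The oligodendrocyte lineage list summed to 502 to 733 against 369 to 491, with Olig1 and Olig2 higher and Pdgfra lower. Their part in these differences was not tested. Of the other channel and receptor genes 8 were higher and 8 lower of 26, and of the transmitter genes 4 of 8 were higher and none lower.

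**Figure D4:**
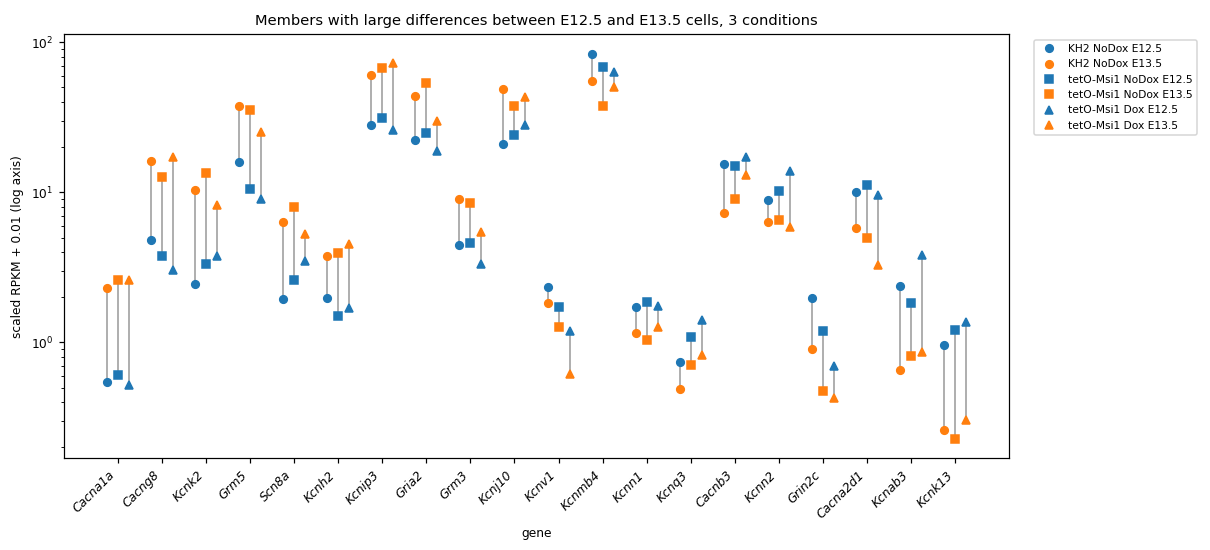
Scaled RPKM + 0.01 on a log axis for 10 members higher and 10 lower at E13.5, taken from members at 1 or more in a stage mean, with lines joining E12.5 (blue) and E13.5 (orange) of the same condition. Cacna1a, Cacng8 and Grm5 rise and Cacna2d1 falls in all 3 conditions.

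Msi1 induction was compared in tetO-Msi1 cells at both stages, with stage as a block. The fit had 4 libraries and 1 residual degree of freedom, and edgeR took the spread wholly from a value pooled over genes. The SE and p-values therefore do not measure each gene's own variation. Of 82 members tested, 2 were higher and 10 lower with Dox by edgeR (adjusted p under 0.05), against 1.78% and 1.82% of 11938 genes. The lower ones included 3 of the 4 AMPA receptor genes. Gria2 went from 25 to 18.8 at E12.5 and from 53.3 to 30.1 at E13.5 (-0.61 ± 0.15, edgeR adjusted p = 0.0053). Gria4 went from 9.74 to 6.08 and from 7.17 to 4.01 (-0.75 ± 0.16, edgeR adjusted p = 0.00047), and Gria3 from 6.06 to 4.22 and from 9.01 to 5.35. Grin3a went from 4.08 to 2.45 and from 6.60 to 3.14 (-0.91 ± 0.17, edgeR adjusted p = 2.2e-05). The other lower members were Gabra2 (-1.46 ± 0.38), the T-type calcium channel Cacna1g (-1.16), the leak channel Kcnk10 (-0.94), Kcnv1 (-0.82), Gabrg1 (-0.58) and Grm3 (-0.55). Of the higher members, the A-type gene Kcnd1 was higher by 0.72 ± 0.23 (edgeR adjusted p = 0.04998). Kcnd1 lost its call by DESeq2, with RLE in place of TMM, with a CPM minimum of 0.25, without a low-count filter and with technical library A alone.

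In KH2 cells, which have no Musashi transgene, Gria2 was at 22.3 and 22.0 and Gria4 at 10.02 and 10.1 without and with Dox. In tetO-Msi2 cells Gria2 was at 23.8 and 19.0 and Gria4 at 16.2 and 13.1. Kcnv1 was at 2.35 without and 1.35 with Dox in KH2 cells as well, beside 1.73 and 1.19 in tetO-Msi1 cells at E12.5 and 1.26 and 0.603 at E13.5. The difference between the transgenic lines and KH2 cells was not tested. The summed neuron markers went from 35.2 to 26.7 at E12.5 and from 61.0 to 42.6 at E13.5 with Dox in tetO-Msi1 cells. The astrocyte marker Gfap (-0.77 ± 0.20) and the oligodendrocyte lineage marker Pdgfra (-0.54 ± 0.16) were also lower (edgeR adjusted p = 0.0067 and 0.025). Gfap went from 1.22 to 1.28 at E12.5 and from 21.1 to 9.68 at E13.5. S100b of the same list rose, from 4.04 to 8.43 and from 5.83 to 8.46. The summed astrocyte list went from 490 to 452 and from 568 to 476. The summed oligodendrocyte lineage list went from 398 to 402 and from 502 to 733. The part of these markers was not tested. Without the stage block 0 members were called, with 1 at an unadjusted p under 0.05 by edgeR, and DESeq2 called 4, all of them among the 12.

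Dox was also compared over the 3 tet lines at E12.5, with line as a block. Of 82 members tested, 1 was higher and 1 lower by edgeR, against 0.159% and 0.292% of 11969 genes. Kcna2 was higher with Dox in all 3 lines, including KH2: from 11.4 to 14.7 in KH2, from 11 to 15.2 in tetO-Msi1 and from 10.8 to 13.6 in tetO-Msi2 cells (0.39 ± 0.078, edgeR adjusted p = 0.044). Grin3a was lower, from 6.14 to 5.23, from 4.08 to 2.45 and from 3.1 to 2.0 (-0.51 ± 0.11, edgeR adjusted p = 0.049). Neither was called without the tetO-Msi1 or without the tetO-Msi2 pair, and without KH2 both were called with 8 more members. The 8 were Gria2, Gria3, Gria4, Gabra2, Grm3, Kcnab3, Kcnd2 and Grinl1a. Without the line block 0 members were called, with 4 at an unadjusted p under 0.05.

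4-OHT was compared in C1 and C4 cells together, with line as a block, which asks for a response shared by cells without and with Cre. Of 89 members tested 3 were higher and 3 lower by edgeR, against 3.14% and 2.36% of 11626 genes. Kcnc4, a fast Kv3 channel gene, went from 1.05 to 1.77 in C1 and from 0.715 to 2.75 in C4 cells (1.32 ± 0.24, edgeR adjusted p = 0.018). Grm5 went from 3.57 to 5.11 and from 4.49 to 12.4 (0.99 ± 0.18, edgeR adjusted p = 0.018), and Kcna2 from 8.64 to 10.6 and from 7.59 to 12.2 (0.48 ± 0.096, edgeR adjusted p = 0.026). The lower genes were among those high in the floxed lines. Gabra5 went from 6.68 to 5.41 and from 4.84 to 2.88, Kcnk3 from 12.54 to 7.99 and from 6.66 to 5.19, and Kcnf1 from 4.78 to 3.55 and from 12 to 8.12, by -0.53, -0.52 and -0.51 on the log2 scale (edgeR adjusted p = 0.041, 0.017 and 0.011). The summed neuron markers went from 145 to 127 in C1 and from 137 to 93.8 in C4 cells. The summed astrocyte markers went from 473 to 409 and from 541 to 410, with Aqp4 and Gja1 lower. Acta2 was lower, from 87.0 to 38.8 and from 56.1 to 30.1, and Olig1 was higher, from 310 to 375 and from 234 to 325. The part of these markers was not tested. Without the line block 0 members were called, with 6 at an unadjusted p under 0.05.

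The response of C4 cells beyond that of C1 cells, the comparison that bears on Musashi loss, was tested as an interaction over the 10 E12.5 libraries. It called 0 of 99 members and 0% of 12439 genes by edgeR, with 7 members and 495 genes at an unadjusted p under 0.05, and DESeq2 called 0 members with 3 at an unadjusted p under 0.05. Grm5 had the interaction 0.94 ± 0.21 (edgeR adjusted p = 0.29) and Kcnc4 1.19 ± 0.38 (adjusted p = 0.80). The spread in this test came from the Dox responses of the tet lines. Without the KH2 pair in that spread 4 members were called, Gabra2, Grm3, Grm5 and Kcnc4, and without the tetO-Msi1 pair Grm5 was called.

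**Figure D5:**
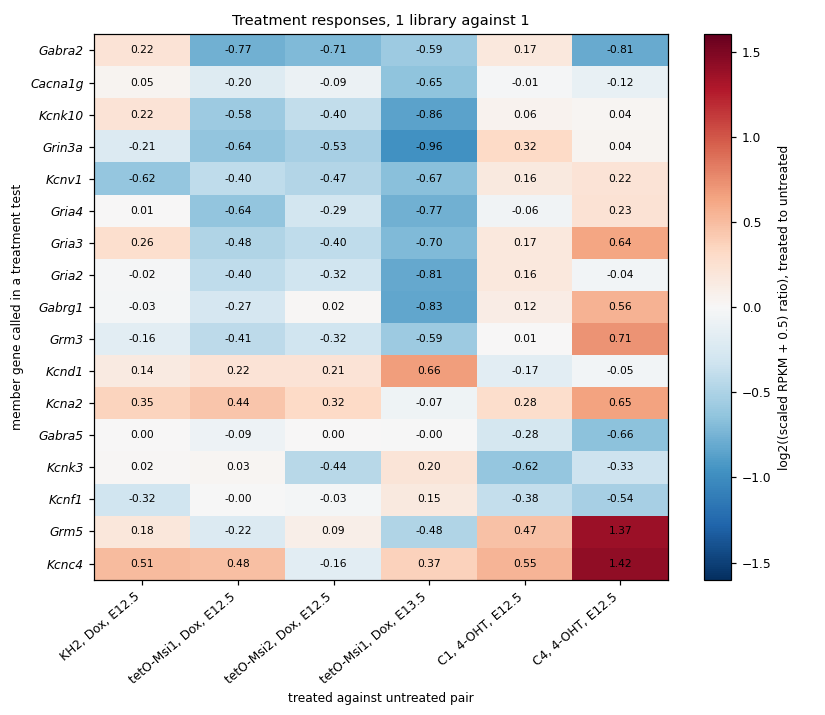
Log2((scaled RPKM + 0.5) ratio), treated to untreated, of 17 of the 18 members called in a treatment test (rows) in each of the 6 treated pairs (columns), with 1 library against 1 in each cell. Gria2 is at -0.40 and -0.81 in the tetO-Msi1 pairs and at -0.02 in the KH2 pair, and Kcnc4 is at 1.42 in the C4 pair.

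Single pairs were compared on the deposited RPKM with a pseudocount of 0.5 and no test, for genes whose mean was 1 or more. A 2-fold change was reached by 0 of 40 members in KH2 cells, 0 of 37 in tetO-Msi1 and 0 of 36 in tetO-Msi2 cells at E12.5, 1 of 49 in tetO-Msi1 cells at E13.5, 0 of 65 in C1 and 2 of 60 in C4 cells. Over all genes the shares were 0.0984%, 0.354%, 0.387%, 0.916%, 0.11% and 1.14%. In C4 cells these were Kcnc4 (RPKM 1.01 and 4.07, ratio of counts scaled by the reads behind the RPKM 4.01, 95% counting interval 3.50 to 4.62) and Grm5 (6.37 and 18.3, ratio 2.87, 2.71 to 3.04).

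Translational efficiency (TE), the footprint RPKM over the mRNA RPKM, was compared in the 4 pairs with both readouts, for members with more than 5 reads in each of the 4 libraries. A member was called where TE moved at least 3-fold while mRNA moved less than 1.5-fold. This was met by 0 of 29 members in KH2, 0 of 25 in tetO-Msi1, 12 of 56 in C1 and 0 of 42 in C4 cells, against 1.1%, 1.25%, 37.7% and 2.43% of all genes. The C1 pair stood apart over the whole table: the median log2 TE change of 9383 genes was -1.46, and of the members -1.19. The 12 were Gria2, Gria4, Grm3, Grm5, Gabra2, Gabrg1, Cacng5, Cacnb3, Cacna2d1, Kcnf1, Kcnh5 and Kcnv1, all lower. For Gria2 the C1 footprints were 1097 untreated and 246 treated, with a log2 TE change of -2.18 (95% counting interval -2.39 to -1.98). After the median was taken off it was -0.73, and none of the 12 passed.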

How the data were processed

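The deposited counts per gene and RPKM values of RNA-Seq and Ribo-Seq were used. Per the labels and the methods, the authors mapped reads to mm9 with Bowtie and TopHat and counted them with their own pipeline, RNA per Ensembl gene and footprints over coding exons (versions and the strand setting are not given in the sources used here). Overlapping genes may therefore share reads.

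Samples were grouped by label, and every data column had a sample. The 2 technical libraries were summed. Counts were tested in R 4.3.3 with edgeR 4.0.16 (TMM, glmQLFTest, at least 1 CPM in 2 libraries, Benjamini-Hochberg over all genes tested, threshold 0.05), with DESeq2 1.42.0 as an alternative. SE is the standard error of the log2 change. Intervals of count ratios are 95%, for counting error only. Scaled RPKM, footprints and TE were computed in Python 3.11.15 with pandas 2.3.3 and drawn with matplotlib 3.10.9. The scripts were tested on simulated data.

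The members, lists and tests were chosen with earlier results of these data known. Named genes were the 20 members of highest mean RPKM in untreated E12.5 cells, the highest of each family, up to 6 rises and 6 falls of largest change per test, members past the TE or single-pair limits, and Msi1 and Msi2. Other members named, such as those of the GABA-A clusters, were chosen after their values were seen. Some members count in the totals and are not reported here by name.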

Additional observations from a re-analysis of the deposited data

Results flagged for a closer look

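Footprints of members outside the RNA-Seq files are a signal beside the mRNA comparisons. Over the 8 Ribo-Seq libraries, Grik2, a kainate receptor subunit, had 310 footprints, with 164 in untreated C1 cells and 5 to 50 in the others. Scaled for library size and length, untreated C1 cells were at 2.21 and the others at 0.731 to 1.98. Cacna1h, a T-type calcium channel, had 242, with 25 to 87 in the tet libraries and 0 to 31 in the floxed libraries. Scnm1, which is not a channel subunit, had 139. Kcne1l, a potassium channel accessory subunit, had 119, of which 52 were in untreated tetO-Msi1 cells. Its scaled level was 2.37 in untreated and 3.20 in treated tetO-Msi1 cells and at most 1.08 in the others. The Kv3 gene Kcnc1 had 65, the silent Kv subunit Kcng1 55, the inward rectifier Kcnj12 52 and the GABA-A subunit Gabrg3 47. The second Ensembl gene named Scn8a had 26. The calcium channel pore Cacna1c had 7 and the sodium channel Scn3a 5, so little can be read from them. With 1 library per condition, no group was large enough to look for a library far from the rest.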

How the results depend on the processing

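Calls of members depended most on the block and on single pairs. For Dox in tetO-Msi1 cells at both stages, 12 members were called, 4 by DESeq2 and 0 without the block. For Dox in the 3 tet lines, 2 were called, 7 without a filter on low counts, 0 without the block, and 0 to 10 with 1 line left out. For 4-OHT in C1 and C4 cells, 6 were called, 15 without a filter and 0 without the block. For the C4 response beyond C1, 0 were called, 1 without a filter (Grm5) and 0 to 4 with 1 tet line left out. Leaving out 1 condition or library gave 30 to 52 members for the stages (52 with all) and 39 to 66 for the line families (59 with all). With 1 of 2 pairs left out, the tetO-Msi1 and 4-OHT comparisons have no residual degrees of freedom and no test. For the members expressed, 53 by mRNA became 34 of all 179 members by a mean footprint RPKM of at least 1 in untreated libraries. These 34 need not be among the 53. For single pairs, 3 calls became 10 with a pseudocount of 0.1 and 5 without a filter. For TE, 12 calls became 38 at 2-fold, 0 without the C1 pair and 4 after centring on the median of each pair, and these 4 (Kcnh8, Cacna1d, Kcnq3 and Kcnd1, all in C1 cells, higher relative to the median) were not among the 12. The centring, scaled-level and C1 alternatives were chosen after seeing the data. The cause of these changes was not tested. Of the 388 alternative values of 44 named results, 0 reversed direction, 40 lost the call, 20 of them without the block, and 23 were single-pair values with no test that moved by more than the SE. The shallowest footprint library held 657288 counts.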
